A study of Homo sapiens with 6 samples.

Results

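The epidermal growth factor receptor (EGFR) family was examined in MDA-MB-231 cells, a human breast cancer line of the basal-like type, with and without gamma irradiation. The genes described are 3 receptors (EGFR, ERBB2 and ERBB3) and 4 ligands (AREG, EREG, HBEGF and TGFA). They were taken by gene name from an expression table of 58735 genes, and each of the 7 names matched 1 row. RNA was collected 24 h after exposure to 0 Gy or 10 Gy from a 137Cs source, with 3 libraries per dose. The labels give all libraries the genotype WT and name the cells SCR, and the study uses MDA-MB-231 shSCR cells as the control of its knockdown. Whether the irradiated cells carried that construct is not clear from the labels, and all libraries come from 1 established line. No label says whether the 3 libraries of a dose came from separate cultures, so p-values measure the spread between these libraries, which may be technical.

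Receptors of this family are tyrosine kinases of the cell surface that work as dimers. EGFR binds AREG, EREG, HBEGF and TGFA, while ERBB2 has no known ligand of its own and serves as the preferred dimer partner, and ERBB3 binds neuregulins and signals through its partners because its own kinase is weak. The ligands are made as membrane-anchored precursors and are cut free by metalloproteases, chiefly ADAM17 and ADAM10. In basal-like breast cancer lines EGFR is usually abundant, ERBB2 is not amplified, and hormone receptors are absent.

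Levels are given as FPKM, the fragment counts scaled to gene length and library size that the authors deposited. Levels of different genes can be compared per length as far as the deposited lengths match the transcripts present. This match was not tested. Each FPKM above 0 corresponded to a whole number of reads, and the recovered reads on genes summed to between 15643641 and 28861781 per library. Across genes, Pearson's r was at least 0.992 between libraries given the same dose. The summed FPKM was lower in each 10 Gy library (246920 to 254918) than in each 0 Gy library (269611 to 278380). Of 8 mesenchymal or basal genes that mark this line, all had at least 1 FPKM, and VIM was at 301 FPKM at 0 Gy. Their summed level was 1116 to 1133 FPKM at 0 Gy and 927 to 952 FPKM at 10 Gy, with 6 of the 8 called lower, 1 (ZEB1, at 0.18 on the log2 scale) called higher and FN1 not called, where 23.7% of all tested genes were called lower and 11.9% higher. The estrogen receptor gene ESR1 was at 0.0087 FPKM at 0 Gy, and PGR was listed at 0 in every library, but the luminal keratin genes KRT8 and KRT18 were at 94.97 and 109 FPKM. Of 8 luminal genes 4 reached 1 FPKM and none was called, and their sum was 198 to 224 FPKM at 0 Gy and 209 to 215 FPKM at 10 Gy. Of 5 leukocyte genes 1 reached 1 FPKM, CD14, at 1.96 FPKM at 0 Gy and 2.48 FPKM at 10 Gy, and it was not called. CD3E was listed at 0 in every library. The sum of the 5 leukocyte genes was 1.39 to 2.59 FPKM at 0 Gy and 2.06 to 3.21 FPKM at 10 Gy. Of 7 endothelial and fibroblast genes 3 reached 1 FPKM, of which PECAM1 and COL1A1 were called higher at 10 Gy. The sum of these 7 genes went from between 5.49 and 5.64 to between 7.54 and 7.79 FPKM. DCN was listed at 0 in the 0 Gy libraries. The part of these shifts in the values below was not tested. In bulk RNA, fewer cells of a type and less RNA per cell cannot be told apart.

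At 0 Gy the member with the highest FPKM was the ligand gene HBEGF, followed by EGFR, TGFA, AREG, ERBB2, EREG and ERBB3. This order rests on the deposited lengths, 3018 bases for HBEGF and 12521 for EGFR. Before scaling to length, EGFR had more recovered reads than HBEGF in every library (7049 against 4174 in 0 Gy replicate 1). Mean levels at 0 Gy were 61.2 ± 3.23 FPKM for HBEGF, 29.8 ± 2.95 for EGFR and 12.6 ± 0.899 for TGFA (SD, n = 3). AREG was at 7.54 ± 0.177, ERBB2 at 7.08 ± 0.390, EREG at 3.40 ± 0.170 and ERBB3 at 0.426 ± 0.013 FPKM (SD, n = 3). The only neighbours in this order whose 0 Gy libraries overlapped were AREG and ERBB2. Among the 12128 genes whose mean reached 1 FPKM, 94.2% lay below HBEGF and 85.9% below EGFR at 0 Gy. The order of the 7 means was the same at 10 Gy.

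**Figure D1:**
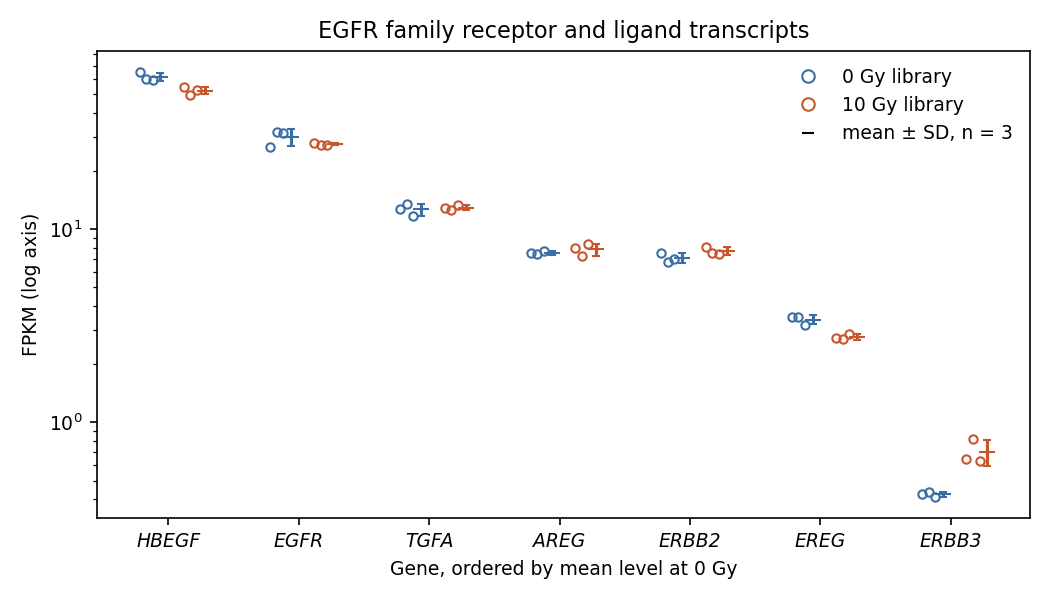
FPKM of the 7 receptor and ligand genes on a log axis, with each open circle a library, and the bar and whiskers beside the circles the mean ± SD of 3 libraries at 0 Gy (blue) or 10 Gy (orange). HBEGF stood highest at both doses, and the 10 Gy libraries of HBEGF and EREG lay below, and those of ERBB3 above, the 0 Gy libraries. Of all tested genes 32.8% were lower without overlap, and of genes with means between 0.1 and 1 FPKM 17.6% were higher without overlap.

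The effect of 10 Gy was tested with limma on log2(FPKM + 1) across the 12128 genes, and a gene was called when its p, adjusted by Benjamini-Hochberg, was below 0.05. Fold changes on this scale understate the change of genes with low levels. Of the 6 members that reached a mean of 1 FPKM, 2 were called, HBEGF and EREG, both lower at 10 Gy. Over all tested genes 35.6% were called, 11.9% higher and 23.7% lower, so the count of called members was close to this background. ERBB3 did not reach the minimum and has no test in this fit. The median change of the 6 tested members was -0.04, and that of all tested genes was -0.04.

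Among the ligands, HBEGF and EREG were lower at 10 Gy. HBEGF encodes heparin-binding EGF-like growth factor, whose membrane precursor is also the receptor for diphtheria toxin, and the gene lies on the minus strand at chr5:140332843-140346631 (GRCh38). Its 0 Gy libraries were at 64.9, 59.8 and 58.8 FPKM and its 10 Gy libraries at 54.0, 49.5 and 52.1 FPKM, from 2729 to 4869 reads. The groups did not overlap, which held in the same direction for 32.8% of all tested genes (19.1% were higher without overlap and 51.9% either way). The level at 10 Gy was 0.848 times that at 0 Gy, a log2 difference of -0.23 (standard error 0.048, limma adjusted p = 0.010).

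EREG encodes epiregulin, a ligand of EGFR and ERBB4, and lies on the plus strand at chr4:74365143-74388751. It was at 3.49, 3.51 and 3.21 FPKM at 0 Gy and at 2.73, 2.70 and 2.87 FPKM at 10 Gy, from 282 to 466 reads. All libraries at 10 Gy were below all libraries at 0 Gy, as for 32.8% of all tested genes. The ratio of the means was 0.813, and the log2 difference was -0.22 (standard error 0.052, limma adjusted p = 0.015). This call was lost without 10 Gy replicate 1 (adjusted p = 0.0541) or without 10 Gy replicate 2 (adjusted p = 0.0541), where the log2 differences were -0.22 and -0.21.

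AREG, which encodes amphiregulin, lies 56.4 kb downstream of EREG on the same strand, at chr4:74445134-74455009. Its libraries were at 7.51, 7.38 and 7.73 FPKM at 0 Gy and at 7.95, 7.25 and 8.35 FPKM at 10 Gy, from 187 to 392 reads. The lowest and the highest of the 6 values both belonged to 10 Gy libraries, so the groups overlapped. The log2 difference was 0.050, with a 95% interval of -0.07 to 0.17 (limma adjusted p = 0.49).

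TGFA encodes transforming growth factor alpha and lies on the minus strand at chr2:70447280-70554193. It was at 12.7, 13.5 and 11.7 FPKM at 0 Gy and at 12.8, 12.5 and 13.3 FPKM at 10 Gy, with all 10 Gy values inside the range of the 0 Gy values. The log2 difference was 0.028, with a 95% interval of -0.10 to 0.15 (limma adjusted p = 0.71).

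The bases upstream of the start sites of HBEGF, EREG and AREG are shown because HBEGF and EREG were the members called lower, while AREG, the neighbour of EREG, was not called. They come from RefSeq windows on GRCh38.p14, which were found for 6 of the 7 members. Each run ends before the start given in RefSeq and in the expression table, is written 5′ to 3′ on the gene's strand, and covers chr5:140346632-140346853 for HBEGF, chr4:74364895-74365142 for EREG and chr4:74444886-74445133 for AREG. Capitals mark 3 motifs, each searched on both strands: TATAAA of the box near many start sites, the cyclic AMP response element TGACGTCA, and GGGCGG, the box bound by SP1.
HBEGF: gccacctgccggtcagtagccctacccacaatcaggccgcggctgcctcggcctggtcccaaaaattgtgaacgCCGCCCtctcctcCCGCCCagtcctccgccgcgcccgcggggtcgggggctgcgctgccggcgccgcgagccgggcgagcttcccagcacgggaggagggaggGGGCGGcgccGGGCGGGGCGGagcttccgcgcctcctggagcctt
EREG: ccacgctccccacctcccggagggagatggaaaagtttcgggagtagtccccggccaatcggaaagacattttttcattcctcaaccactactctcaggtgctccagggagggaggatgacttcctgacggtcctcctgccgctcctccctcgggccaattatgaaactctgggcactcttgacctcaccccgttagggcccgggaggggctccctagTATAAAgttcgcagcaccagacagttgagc
AREG: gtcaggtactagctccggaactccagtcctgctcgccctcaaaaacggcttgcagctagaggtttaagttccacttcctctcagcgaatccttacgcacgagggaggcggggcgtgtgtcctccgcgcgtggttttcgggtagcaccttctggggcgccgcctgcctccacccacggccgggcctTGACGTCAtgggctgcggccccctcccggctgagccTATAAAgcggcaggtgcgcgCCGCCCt
EREG and AREG each hold 1 TATAAA, and HBEGF holds 0 in this window. HBEGF holds 5 GGGCGG matches, AREG 1 and EREG 0. AREG alone of the 3 holds TGACGTCA, with 1 match. Over all 35116 RefSeq promoter windows, TATAAA occurs in 11.5%, TGACGTCA in 1.85% and GGGCGG in 45.0%. TGANTCA, the core of AP-1 sites, was also searched, occurs in 7.71% of windows and has 0 matches in the windows of these 3 genes. A match describes the letters and is not evidence of binding.

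Among the receptors, EGFR was the most abundant at both doses. EGFR lies on the plus strand at chr7:55019021-55211628. It was at 26.4, 31.6 and 31.4 FPKM at 0 Gy and at 27.8, 27.3 and 27.2 FPKM at 10 Gy, from 6086 to 10419 reads. The 0 Gy libraries included both the lowest and the highest values, and 0 Gy replicate 1 stood below all the others. The log2 difference was -0.11, with a 95% interval of -0.27 to 0.046 (limma adjusted p = 0.23). Without 0 Gy replicate 1, the difference was -0.19 and EGFR was called lower (limma adjusted p = 0.0040, with 21.4% of genes called lower in that fit), so a single control library decides this call.

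ERBB2 lies on the plus strand at chr17:39687914-39730426. It was at 7.51, 6.76 and 6.97 FPKM at 0 Gy and at 8.08, 7.48 and 7.44 FPKM at 10 Gy, with 0 Gy replicate 1 above 2 of the 10 Gy libraries. The log2 difference was 0.10, with a 95% interval of -0.02 to 0.22 (limma adjusted p = 0.16). MIEN1 and PGAP3 overlap ERBB2 in the table and lie on the opposite strand. As the strand setting of the counting is not stated, reads in the shared bases cannot be told apart. The recovered reads over the 6 libraries were 2418 for MIEN1, 798 for PGAP3 and 9850 for ERBB2. For EGFR, the antisense gene EGFR-AS1 had 18 reads against 45679.

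ERBB3, on the plus strand at chr12:56076799-56103505, was the least abundant member. It was at 0.425, 0.439 and 0.414 FPKM at 0 Gy and at 0.647, 0.824 and 0.628 FPKM at 10 Gy, from 61 to 175 reads. Every 10 Gy library was above every 0 Gy library, as for 17.6% of the 8086 genes with means between 0.1 and 1 FPKM. The mean at 10 Gy was 1.64 times that at 0 Gy. An exact permutation test gave a two-sided p of 0.1, the smallest that 3 libraries against 3 allow. When the minimum was lowered to 0.1 FPKM, limma gave an adjusted p of 0.0529, just over the threshold. At that minimum, 18.7% of 20214 genes were called, and 3.82% of those between 0.1 and 1 FPKM (3.59% higher). The protein-coding gene AC034102.2 overlaps ERBB3 on the same strand and had 0 reads over all libraries, against 658 for ERBB3. How reads in the shared bases were counted is not stated. What the overlap does to the level of ERBB3 was not tested.

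The calls of HBEGF and EREG held with upper quartile scaling (limma adjusted p = 0.0100 and 0.013) and with median-of-ratios scaling (0.011 and 0.016), and no other member was called with either. They were lost with TPM scaling. Scaling each library to the same summed FPKM, as TPM does, moved the median change of all tested genes from -0.04 to 0.068. With that scaling HBEGF (log2 difference -0.11, adjusted p = 0.0821) and EREG (log2 difference -0.13, adjusted p = 0.0889) were no longer called by limma. ERBB2 (log2 difference 0.21, adjusted p = 0.017) and AREG (log2 difference 0.16, adjusted p = 0.040) were called higher instead. The count of called members was thus 2 under both scalings, but for different genes. The share of genes called was 36.2% (24.6% lower) with upper quartile scaling and 35% (22.7% lower) with median-of-ratios scaling. With a replicate block it was 28.9%, and among genes averaging 5 FPKM or more it was 49.7%. It was 32.9%, 32.2% and 29.6% without 0 Gy replicate 1, 2 or 3, and 22.3%, 21.9% and 26.3% without 10 Gy replicate 1, 2 or 3. The share called under TPM scaling was 34.7% of genes, 25.8% higher and 8.83% lower. Relative to the median of all tested genes, HBEGF was at -0.19 as deposited and -0.18 with TPM scaling, and EREG at -0.19 and -0.20. On this relative scale ERBB2 was at 0.14 and 0.15, AREG at 0.088 and 0.095, TGFA at 0.067 and 0.079, and EGFR at -0.07 and -0.05.

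**Figure D2:**
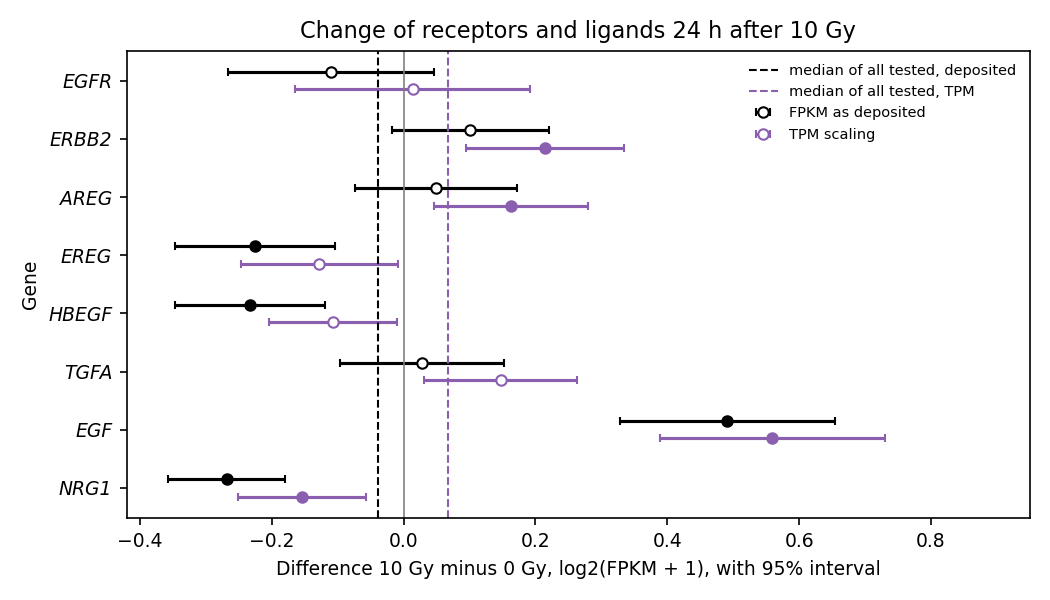
Difference between 10 Gy and 0 Gy on the log2(FPKM + 1) scale for the 6 tested members and for EGF and NRG1, with 95% intervals from limma on the deposited FPKM (black) and after TPM scaling (purple). Filled circles passed an adjusted p of 0.05, and dashed lines are the medians of all tested genes, -0.04 as deposited and 0.068 with TPM scaling. HBEGF and EREG are filled only as deposited, ERBB2 and AREG only after TPM scaling, and NRG1 in both, as is EGF, which reached 1 FPKM only through its 10 Gy libraries.

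Ratios of members within a library do not depend on the scaling. The 6 ratios described here were chosen after the values were seen, so they are given without a test, and how often other gene pairs separate the doses was not computed. AREG stood at 2.15, 2.11 and 2.41 times EREG at 0 Gy and at 2.92, 2.68 and 2.91 times EREG at 10 Gy. The groups did not overlap, and the mean log2 ratio was higher by 0.35 at 10 Gy (SD 0.11 at 0 Gy and 0.070 at 10 Gy, n = 3 each). HBEGF stood at 5.09, 4.45 and 5.04 times TGFA at 0 Gy and at 4.21, 3.96 and 3.92 times TGFA at 10 Gy. These groups did not overlap either, with a mean log2 difference of -0.27. EGFR stood at 3.51, 4.68 and 4.50 times ERBB2 at 0 Gy and at 3.44, 3.65 and 3.65 times ERBB2 at 10 Gy. Here 0 Gy replicate 1 lay among the 10 Gy libraries. HBEGF stood at 2.46, 1.89 and 1.87 times EGFR at 0 Gy and at 1.94, 1.81 and 1.92 times EGFR at 10 Gy, and these groups overlapped. EGFR stood at 62.1 to 75.8 times ERBB3 at 0 Gy and at 33.2 to 43.2 times ERBB3 at 10 Gy, and ERBB2 at 15.4 to 17.7 and 9.07 to 12.5 times ERBB3.

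**Figure D3:**
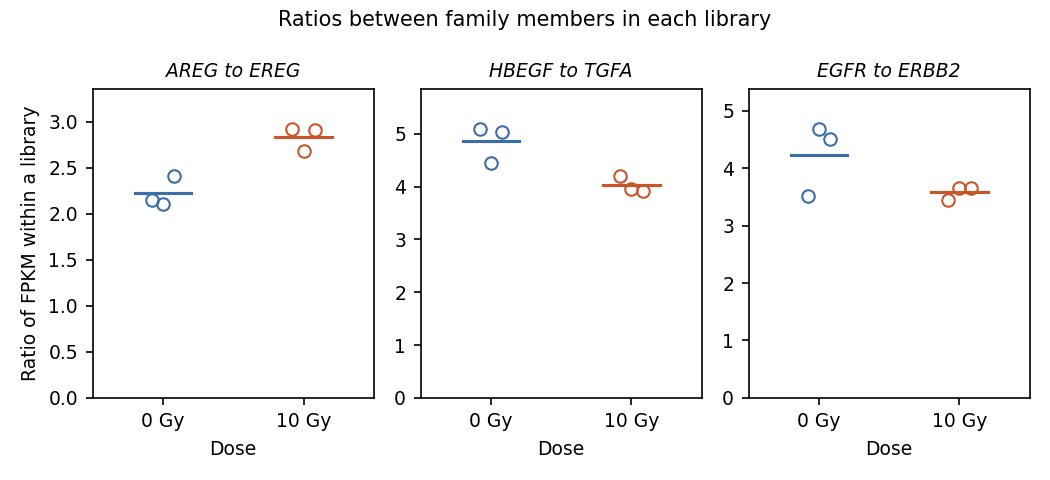
Ratio of FPKM between members within each library, from 0 upward, at 0 Gy (blue) and 10 Gy (orange), with circles for libraries and lines for the mean of 3. The groups are separate for AREG to EREG (2.11 to 2.41 against 2.68 to 2.92) and HBEGF to TGFA (4.45 to 5.09 against 3.92 to 4.21), and overlap for EGFR to ERBB2.

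The family has other members, ERBB4 and the ligands EGF, BTC, EPGN and NRG1 to NRG4, of which EGF and NRG1 reached a mean of 1 FPKM. NRG1, a neuregulin that binds ERBB3 and ERBB4, was at 8.84, 9.14 and 9.20 FPKM at 0 Gy and at 7.10, 7.40 and 7.56 FPKM at 10 Gy. Its groups did not overlap, which held in the same direction for 32.8% of all tested genes. NRG1 fell by 0.27 on the log2 scale (limma adjusted p = 0.0026, and 0.026 with TPM scaling). EGF, the founding ligand of EGFR, was at 0.765, 0.913 and 0.799 FPKM at 0 Gy and at 1.53, 1.65 and 1.52 FPKM at 10 Gy. It reached the minimum of 1 FPKM only through its 10 Gy libraries, so the adjusted p of that fit (0.0026) is no support. With the minimum at 0.1 FPKM, which every library of EGF passed, it rose by 0.49 on the log2 scale (limma adjusted p = 0.0046). BTC was at 0.728 FPKM and NRG2 at 0.391 FPKM at 0 Gy. EPGN was at 0.084, NRG4 at 0.0092 and ERBB4 at 0.0036 FPKM at 0 Gy, and NRG3 was listed at 0 in every library. Over the 11 ligand genes, HBEGF made up 62.8% to 65.1% of the summed FPKM at 0 Gy and 60.0% to 61.9% at 10 Gy. This share rests on the deposited lengths, 3018 bases for HBEGF and 11328 for NRG1. Before scaling to length, HBEGF had 4174 and NRG1 2135 recovered reads in 0 Gy replicate 1.

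Genes that act around the receptors were read from 4 lists. Of 9 tested genes of ligand shedding and transport, 2 were called higher and 1 lower, with a median log2 change of -0.05, against 11.9% higher, 23.7% lower and a median of -0.04 over all tested genes. ADAM17, the main sheddase of AREG, EREG, HBEGF and TGFA, was at 4.17 ± 0.061 FPKM at 0 Gy and 4.001 ± 0.098 FPKM at 10 Gy (SD, n = 3, limma adjusted p = 0.41). ADAM10 rose by 0.12 on the log2 scale (limma adjusted p = 0.048), and so did FRMD8, a partner of the iRhom proteins that stabilises the sheddase complex, by 0.14 (adjusted p = 0.034). ADAM9 fell by 0.10 (limma adjusted p = 0.032). FRMD8 was not called without 0 Gy replicate 2 (adjusted p = 0.0784) or without 10 Gy replicate 1, 2 or 3 (0.116, 0.0839 and 0.0534). ADAM9 was not called without 0 Gy replicate 2 (0.0789) or without 10 Gy replicate 1, 2 or 3 (0.0878, 0.0983 and 0.108). ADAM10 kept its call in none of the fits that left out 1 library, and the adjusted p of these fits was between 0.052 and 0.15. With TPM scaling the difference of ADAM9 was 0.025 in place of a fall.

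Of 25 tested adaptor, RAS-MAPK and PI3K genes, 3 were called higher and 3 lower, with a median log2 change of 0.027, against the same 11.9% and 23.7% over all tested genes. SOS2, an exchange factor for RAS, rose by 0.33 (limma adjusted p = 0.0046), and the kinase gene SRC rose by 0.29 (adjusted p = 0.0037). PIK3CA, a catalytic PI3K subunit, rose by 0.17 (adjusted p = 0.033). ARAF and HRAS each fell by 0.23 (limma adjusted p = 0.0036 and 0.013). Neither fall was called with TPM scaling, where the adjusted p was 0.0783 for ARAF and 0.104 for HRAS. The call of PIK3CA held without 0 Gy replicate 2 (adjusted p = 0.027) and in none of the other fits that left out 1 library (0.0698 to 0.0994).

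Of 20 tested genes that restrain or sort the receptors, 5 were called higher and 4 lower, with a median log2 change of -0.02, where 11.9% and 23.7% of all tested genes were called higher and lower. PTPRJ, a receptor phosphatase that acts on EGFR, rose by 0.41 (limma adjusted p = 0.0017). LRIG2, a transmembrane protein that associates with EGFR, rose by 0.27 (adjusted p = 0.013), and CBL, the ubiquitin ligase that sends EGFR to lysosomes, rose by 0.26 (adjusted p = 0.030). SOCS3 fell by 0.34 (limma adjusted p = 0.0022). ERRFI1, an inhibitor that binds the EGFR kinase, fell by 0.18 (adjusted p = 0.0092) and the endocytic adaptor gene EPS15 by 0.17 (adjusted p = 0.014). CBL was not called without 10 Gy replicate 1 (adjusted p = 0.0919) or replicate 2 (0.0997), nor EPS15 without 10 Gy replicate 1 (0.0576). With TPM scaling the adjusted p was 0.216 for ERRFI1 and 0.27 for EPS15, and neither was called.

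Of 16 genes that ERK signalling is known to induce, 3 were called higher and 5 lower, with a median log2 change of -0.03, beside 11.9% higher and 23.7% lower over all tested genes. MYC went from 64.6 to 45.6 FPKM and fell by 0.49 on the log2 scale (limma adjusted p = 0.00044). FOSL1, an AP-1 subunit, went from 271 to 196 FPKM and fell by 0.47 (adjusted p = 0.00059). EPHA2, an ephrin receptor, went from 183 to 143 FPKM and fell by 0.36 (adjusted p = 0.00077). SPRED2, an inhibitor of RAS-ERK signalling, rose by 0.36 (limma adjusted p = 0.0027), DUSP6, an ERK phosphatase, by 0.16 (adjusted p = 0.041) and SPRED1 by 0.13 (adjusted p = 0.046). DUSP6 was called without 0 Gy replicate 1 (adjusted p = 0.015) and in none of the other fits that left out 1 library (0.0646 to 0.110), and SPRED1 in none (0.0530 to 0.147). The genes of this list thus had called members in both directions.

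**Figure D4:**
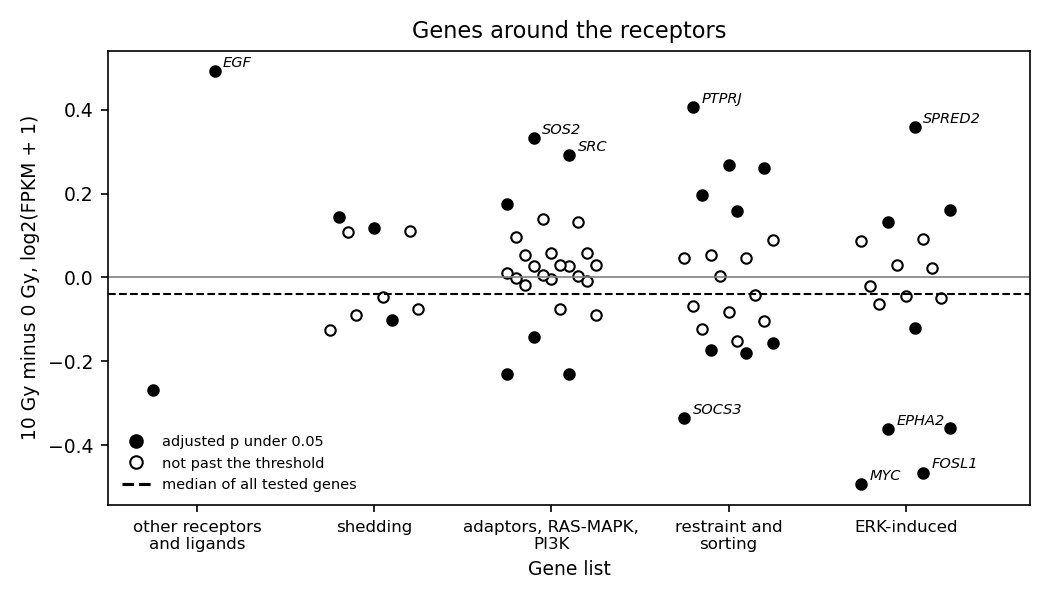
Difference between 10 Gy and 0 Gy on the log2(FPKM + 1) scale for the tested genes of 5 lists, with filled circles for genes past an adjusted p of 0.05, open circles for the others, and a dashed line at the median of all tested genes (-0.04). The 4 lists around the receptors each hold filled circles on both sides of 0, from MYC at -0.49 to PTPRJ at 0.41. Among the other receptors and ligands, NRG1 is filled at -0.27 and EGF at 0.49. EGF reached 1 FPKM only through its 10 Gy libraries.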

How the data were processed

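PolyA libraries of MDA-MB-231 cells were sequenced by the provider as paired-end reads, 3 at 0 Gy and 3 at 10 Gy. The authors deposited FPKM per gene and library, together with gene lengths and coordinates. The submitters' processing notes name HISAT2 and GRCh38, while the counting program and the strand setting are not given in the sources used here. No count table was used. The 6 value columns were assigned to samples by their labels, and samples were grouped by the treatment label. The value of 1 read was taken from the smallest multiples of FPKM and length, with a tolerance of 0.02 read, growing in proportion above 1000 reads. Recovered reads served only to describe libraries and genes and entered no test.

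Doses were compared by limma 3.58.1 under R 4.3.3 (lmFit and eBayes with an intensity trend) on log2(FPKM + 1), without covariates, over genes whose mean reached 1 FPKM. Adjusted p-values are Benjamini-Hochberg values over all tested genes. The procedure was tested on simulated data, in which a small set of genes was changed, as many raised as lowered. Such data cannot show how the calls depend on the scaling when falls outnumber rises. Alternatives covered the pseudocount, the minimum level, 3 scalings, a replicate block, eBayes settings, protein-coding genes alone and each library left out. Same-numbered libraries did not deviate together (correlations -0.04, -0.03 and -0.10), and the main fit used no pairing. Deviations from the means of 3 libraries cannot exclude one.

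Named genes are the members, the other family genes and, from each list around the receptors, the called genes with the 3 largest rises and falls. ADAM17 and the marker genes named lie outside this rule and were chosen after their values were seen. The 2 tested genes most correlated with each member over the 6 libraries were also named. Some list genes are not reported here. Members and lists were chosen with earlier results of these data known. Plots and motif searches used Python 3.11.15 with matplotlib 3.10.9.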

Additional observations from a re-analysis of the deposited data

How the results depend on the processing

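The 18 alternatives gave between 2660 and 4692 called genes against 4317, with 2660 to 3993 when 1 library was left out. The lowest counts came without 10 Gy replicate 1 (2705) or replicate 2 (2660). The share of called genes that were higher was 33.4% as deposited and 74.5% with TPM scaling. Called members numbered 2, with 1 at a minimum of 5 FPKM, where EREG was not tested, and 1 to 3 with 1 library left out. With TPM scaling the log2 differences were -0.11 for HBEGF and -0.13 for EREG, both no longer called, 0.21 for ERBB2 and 0.16 for AREG, both called, 0.014 for EGFR, a reversed sign, and 0.025 for ADAM9, also reversed. Leaving out 1 library gave -0.26 to -0.21 for EREG, -0.19 to -0.066 for EGFR, and -0.023 to 0.072 for TGFA. TGFA was negative only without 0 Gy replicate 3. The difference of ERBB3 was 0.25, 0.60 with a pseudocount of 0.1 and 0.37 with 0.5, since a smaller pseudocount shrinks low genes less. The lists around the receptors, together with that of the other receptors and ligands, held 28 called genes. These lists held 9, 25, 20, 16 and 2 tested genes, and 35.6% of all tested genes were called. The 28 include NRG1 and EGF, and EGF reached 1 FPKM only through its 10 Gy libraries. Over the alternatives the count was 19 to 42. The 42 came with TPM scaling, where 34.7% of all tested genes were called. The 19 came without 10 Gy replicate 1 or 2 (22.3% and 21.9% called) or with no minimum beyond a value above 0 (9.2%). The main fit did not pair the libraries by replicate number. A fit with the replicate block called 3503 genes, including HBEGF (adjusted p = 0.013) and EREG (adjusted p = 0.047). Among the members, ERBB3 and AREG had the fewest reads, with 61 to 175 and 187 to 392 per library. What this depth does to their spread was not tested.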

Other observations

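Over the 6 libraries, the tested genes whose log2(FPKM + 1) followed each member most closely were listed as a description, without a test, since 6 points that fall into 2 doses give many high correlations. HBEGF was followed most closely by MRPL27, a mitochondrial ribosomal protein gene (Pearson r 0.999), and PRMT1, an arginine methyltransferase gene (r 0.998), and 586 tested genes had an r over 0.95 with it. EREG was followed by GMPS, which encodes GMP synthase, and MCM2, a subunit of the replicative helicase (r 0.997 for each), with 781 genes over 0.95. MCM2 went from 29.4 FPKM at 0 Gy to 23.0 FPKM at 10 Gy (limma adjusted p = 0.0018). EGFR, whose 0 Gy replicate 1 was low, was followed by TTLL4 (r 0.988) and ZNF592 (r 0.985), with 29 genes over 0.95. ERBB2 was followed by AHI1 (r 0.992) and GNAS (r 0.982), with 16 genes over 0.95. AREG had 2 genes over 0.95, DOP1B (r 0.960) and GPR17 (r 0.959), and TGFA had 11, led by ATP6V1A (r 0.995) and BNIP3P17 (r 0.986).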
